A study of Mus musculus with 12 samples.

Results

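Fibroblasts from C57BL/6 mouse embryos that had carried Akt1 together with Gata4, Hand2, Mef2c and Tbx5 for 3 weeks (AGHMT) were set against ventricular cardiomyocytes isolated from adult C57BL/6 mice (CM). All 3 libraries labelled AGHMT and all 3 labelled CM were used, 6 of the 12 libraries of the series. By their labels the AGHMT cells were sorted on a green fluorescent reporter under the promoter of Myh6, the alpha myosin heavy chain gene, and the labels of CM name no sort. Embryonic fibroblasts after an empty vector for 3 weeks (E, 3 libraries, no sort named) give the level in the starting cell type, as a description without a test. Cells with the factors but without Akt1, also sorted on the reporter (3 libraries), entered the shared estimate of the spread only. In the treatment note the mix is written AGMT with Akt, whereas Akt1 stands in the series title. The series asks how fibroblasts can be made into heart muscle more fully, and this comparison shows which gene programmes lay below and which above the adult level. Age, culture, cell of origin and the sort all differ between the groups and cannot be told apart. Nothing states that replicates were separate cultures or animals, so p-values measure the spread between these libraries only. In such libraries fewer cells of a type and less RNA per cell cannot be told apart either.

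Adult ventricular cardiomyocytes contract by sliding myosin thick filaments along actin thin filaments inside sarcomeres. Each beat is started by a calcium pulse from the sarcoplasmic reticulum and paid for mostly by mitochondrial oxidation of fatty acids. Fetal heart muscle uses other isoforms of several contractile and metabolic proteins, depends more on sugar and still divides. Pacemaker cells of the sinus node are heart muscle cells with few sarcomeres and with channels that let them fire on their own. Gata4, Hand2, Mef2c and Tbx5 are transcription factors of the embryonic heart, and Akt1 is a kinase that carries growth signals from insulin-like receptors.

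Akt1, the gene that sets this group apart by its label, did not stand above any reference group. It had 7.30, 12 and 19.6 CPM in AGHMT 1 to 3 and 23.8, 18.1 and 104 CPM in CM 1 to 3, where CPM is a read count scaled to its library size by the TMM method of edgeR. The E mean was 62.9 CPM, and every AGHMT-labelled library lay below every E library. AGHMT 3 overlapped CM 2, and the log2 fold change, AGHMT minus CM here and below, was -1.90 (SE 0.74, adjusted p = 0.046). The fold had the opposite sign, 0.34, after a correction of each library for GC content and transcript length. The call also ended without AGHMT 1 (-1.57), AGHMT 2 (-1.81), AGHMT 3 (-2.24), CM 3 (-0.69), E 1 (-1.84), E 2 (-1.87) or the second library of the factors without Akt1 (-1.86). The counts show no excess of Akt1 that would match the label, so the group is called AGHMT-labelled and every direction below rests on that label. Whether transcripts of the forced Akt1 construct can be counted to the mouse gene was not tested. Every adjusted p comes from the quasi-likelihood test of edgeR, corrected by Benjamini-Hochberg over all genes tested, with a threshold of 0.05.

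Tbx5 was the 1 forced factor that passed as higher than in adult cells. Its level was 63.8, 105 and 109 CPM in AGHMT-labelled and 19.7, 16.9 and 20.8 CPM in CM libraries, which is 2.28 in log2 units (SE 0.32, adjusted p = 9.01e-05, 2.62 after the GC and length correction). All AGHMT-labelled libraries lay above all CM libraries. Gata4 passed as lower, with 7.45, 10.9 and 10.7 CPM against 40.4, 20.3 and 68.0 (-2.14, SE 0.72, adjusted p = 0.0233). That call ended after the correction (-0.47), with total counts (-2.09) and without AGHMT 1 (-1.95), AGHMT 2 (-2.20), AGHMT 3 (-2.10) or CM 3 (-1.65). Hand2 (-1.55, SE 0.71, adjusted p = 0.0835) and Mef2c (0.64, SE 0.31, adjusted p = 0.105) did not pass. Both had the opposite sign after the correction, 0.77 for Hand2 and -0.95 for Mef2c. Mapped reads do not separate the forced copies from the cells' own genes.

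The depth was 14386407 to 18493989 gene reads in AGHMT-labelled, 5120230 to 15952646 in CM and 15971154 to 33552138 in E libraries. CM 3, the shallowest CM library, stood apart: its Spearman correlation over genes was 0.894 with CM 1 and 0.861 with CM 2, against 0.979 between those 2. Pairs of replicates differed beyond counting error. Fold changes also followed the GC content of the transcripts. The median log2 fold change was 1.47 in the tenth of genes with the lowest GC content and -2.70 in the tenth with the highest. After a per-library correction for GC content and length these medians were 0.04 and -0.60, and without CM 3 they were 1.23 and -1.5. Log2 fold changes below are therefore given beside their corrected values, genes with few or no reads in a group are given by their levels, and called genes are those that passed with and without the correction unless stated. Whether chemistry of the libraries or biology carries the GC trend was not tested.

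**Figure D1:**
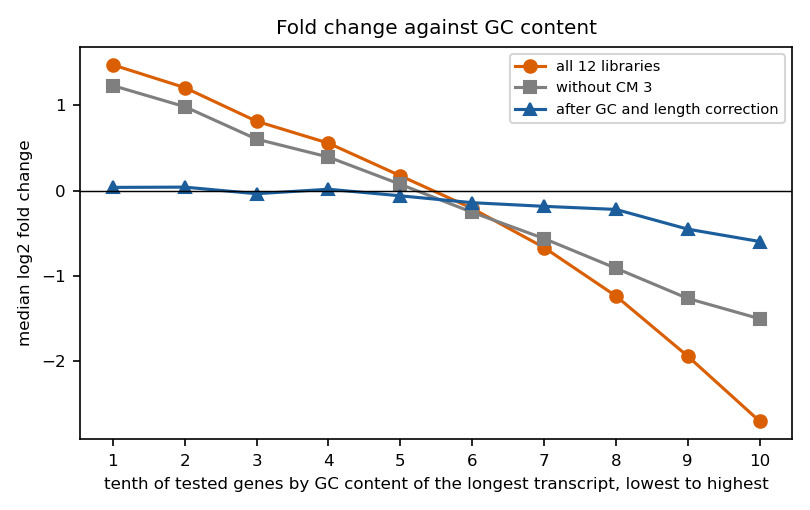
Median log2 fold change (y axis) of AGHMT-labelled against CM libraries in 10 equal groups of the tested genes ordered by GC content (x axis), with all libraries, without CM 3 and after the GC and length correction. The uncorrected line falls from 1.47 to -2.70, while the corrected line stays between 0.04 and -0.60.

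The test covered 15059 genes. In AGHMT-labelled libraries 3576 (23.7%) passed as higher than in CM and 3668 (24.4%) as lower, together 48.1%. With the GC and length correction 2837 (18.8%) were higher and 3338 (22.2%) lower. Both fits called 2187 genes higher (14.5%) and 2387 lower (15.9%), and 20 genes passed in opposite directions. Of the calls in the uncorrected fit 49.4% were higher, against 28.7% when edgeR used DESeq2's size factors, 29.0% by DESeq2, 33.5% by limma, 56.1% with total counts and 58.7% without AGHMT 3. DESeq2's factors moved the median of all genes from -0.05 to -0.78, so directions below are relative to the TMM scale. Without AGHMT 3 the lower calls numbered 2152, and without AGHMT 1 they numbered 2389. The 95% interval of the log2 fold change lay inside -1 to 1, a level within 2-fold of the adult one, for 345 genes (2.29%), and in both fits for 106 (0.704%). The 6 libraries did not overlap between the groups for 70.5% of genes.

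**Figure D2:**
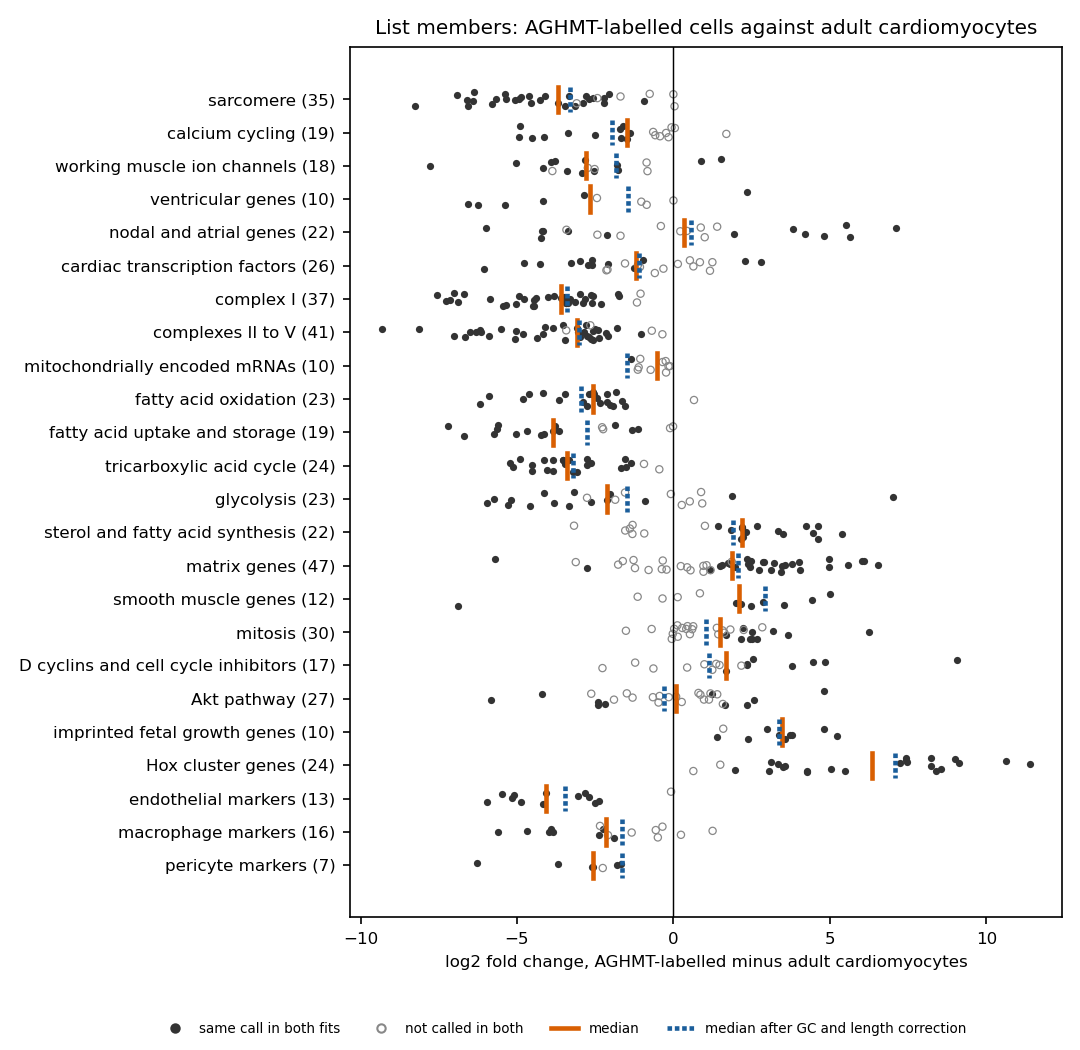
Log2 fold change (x axis) of each tested member of 24 gene lists (y axis, number tested in brackets), with filled points for members with the same call in both fits and bars for the list medians without and with the GC and length correction. The medians include -3.70 for sarcomere genes, -1.47 for calcium cycling and -3.84 for fatty acid uptake and storage, and those of the imprinted and Hox lists lie at 3.47 and 6.36.

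Contractile genes were far below the adult level but mostly above fibroblasts. Of 35 sarcomere genes tested, 31 were lower than in CM (background 24.4%), 31 were lower after the correction and 29 in both fits, with a median of -3.70 (-3.30 corrected, all genes -0.05 and -0.13). None passed as higher. In 31 of the 35 genes all AGHMT-labelled libraries lay above all E libraries, where 34.76% of all genes did. Sarcomere genes held 1.02% to 1.27% of the reads from nuclear genes in AGHMT-labelled libraries, 7.49% to 15.9% in CM and 0.291% to 0.347% in E.

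Among thick filament genes, 6 of 8 were lower in both fits. Myh6, whose promoter drove the sort reporter, had 108, 223 and 104 CPM in AGHMT-labelled and 2593, 2268 and 17410 CPM in CM libraries. The 2 groups were far apart, with CM 3 high, and the log2 fold change was -5.68 (SE 0.79, adjusted p = 8.24e-05), -3.97 corrected and -4.07 without CM 3. The E mean was 0.986 CPM, so cells sorted on this promoter held the transcript at a level between fibroblasts and adult muscle. Myl2, a ventricular myosin light chain that tunes force, had 210, 343 and 131 CPM against 9874, 5125 and 13306 (-5.37, SE 0.64, adjusted p = 2.51e-05, -4.95 corrected). Every AGHMT-labelled library was below every CM library. Myl3, the essential light chain, stood at 13.1, 18.9 and 10.2 CPM against 356, 321 and 3342 (-6.57, -5.81 corrected, -4.59 without CM 3). Myh7, the slow myosin of the fetal mouse ventricle, was lower as well, with 23.6, 29.1 and 30.5 CPM against 249, 239 and 242 (-3.13, SE 0.36, adjusted p = 1.85e-05, -2.08 corrected).

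Thin filament genes were lower in 8 of 9 cases in both fits. Tnni3, the adult cardiac troponin I that lets calcium switch the filament, had 13.9, 25.6 and 11.6 CPM against 339, 412 and 4231 (-6.60, SE 0.91, adjusted p = 7.93e-05, -4.53 corrected, -4.46 without CM 3). Actc1, cardiac actin, had 348, 541 and 517 CPM against 10463, 8447 and 7959 (-4.26, SE 0.45, adjusted p = 8.99e-06, -3.31 corrected). Tpm1, the tropomyosin that fibroblasts also make (E mean 1334 CPM), was closer, with 1405, 1811 and 1575 CPM against 6104, 6722 and 9514 (-2.22, -2.32 corrected). Tnni1, the slow and fetal troponin I, was too low to test, with 4, 7 and 3 reads in AGHMT-labelled and 0, 1 and 4 in CM libraries. All 5 genes of titin and the M-band were lower in both fits, the giant spring titin least. Ttn had 1318, 1168 and 1170 CPM against 6791, 6270 and 4055 (-2.23, SE 0.27, adjusted p = 2.68e-05, -2.87 corrected). Its E mean was 5.61 CPM.

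Of 13 Z-disc and scaffold genes 10 were lower in both fits. Tcap, which caps titin at the Z-disc, had 0.922, 1.43 and 1.09 CPM against 34.3, 56.2 and 972 (-8.25, SE 1.2, adjusted p = 1.21e-04, -4.46 corrected, -5.29 without CM 3). Des, the muscle intermediate filament, had 3.92, 5.07 and 1.69 CPM against 72.2, 63.3 and 772, and its E mean was 3.44 CPM. AGHMT-labelled libraries overlapped E and lay below CM (-6.41, -4.38 corrected, -4.26 without CM 3). Ldb3, a Z-disc organiser named after its values were seen, was at the adult level, with 625, 463 and 614 CPM against 441, 546 and 673 (0.04, 95% interval -0.54 to 0.61, -0.01 corrected) and 4.59 CPM in E. With DESeq2's size factors it passed as lower (-0.75).

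Promoters of 4 genes that span these results are shown, the sort promoter, an adult troponin and creatine kinase that lay far below CM, and the pacemaker channel that lay above it. Each is the 250 bases before the start in RefSeq (GRCm38.p6), and capitals mark a match to the T-box motif GGTGTG on either strand.
Myh6 (chr14:54966608-54966857, minus strand): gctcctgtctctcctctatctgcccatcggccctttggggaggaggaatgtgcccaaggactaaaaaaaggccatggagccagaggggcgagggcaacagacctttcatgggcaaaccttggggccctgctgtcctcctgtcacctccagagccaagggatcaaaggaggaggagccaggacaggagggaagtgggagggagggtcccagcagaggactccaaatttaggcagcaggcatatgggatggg
Tnni3 (chr7:4522529-4522778, minus strand): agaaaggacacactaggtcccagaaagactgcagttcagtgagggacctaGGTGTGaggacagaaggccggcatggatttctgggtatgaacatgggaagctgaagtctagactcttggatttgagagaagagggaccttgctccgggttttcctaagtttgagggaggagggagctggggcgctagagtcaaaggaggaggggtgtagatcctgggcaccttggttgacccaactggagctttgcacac
Ckm (chr7:19410844-19411093, plus strand): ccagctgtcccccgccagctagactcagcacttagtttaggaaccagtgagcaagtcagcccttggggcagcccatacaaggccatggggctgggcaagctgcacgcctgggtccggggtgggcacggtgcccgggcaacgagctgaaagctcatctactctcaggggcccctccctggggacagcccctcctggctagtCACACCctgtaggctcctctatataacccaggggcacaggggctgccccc
Hcn4 (chr9:58822699-58822948, plus strand): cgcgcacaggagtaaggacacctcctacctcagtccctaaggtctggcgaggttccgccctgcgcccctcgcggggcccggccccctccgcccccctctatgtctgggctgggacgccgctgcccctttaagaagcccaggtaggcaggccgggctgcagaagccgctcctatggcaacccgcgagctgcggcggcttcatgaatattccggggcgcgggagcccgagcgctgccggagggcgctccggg
The match starts 200 bases before the start in Tnni3 and 50 bases before it in Ckm, and 16.3% of all 32851 promoters of this length hold one. Searches on both strands for the GATA motif AGATAA (9.99% of promoters), the estrogen-related receptor motif AAGGTCA (4.08%), and the MEF2 and CArG motifs (1.69% and 1.47%) found no match in these 4 windows, which says only that these letters are not there. A match is a description and not a bound site.

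Shares of paired isoforms within 1 library do not depend on how libraries are scaled, and they showed the same shortfall. The shares given here still hold the GC and length trend of each library. Each share is the adult-heart form as a percentage of both forms, in reads per kilobase of exon. Cardiac actin was 70.6%, 74.2% and 76.1% of Actc1 plus the smooth muscle actin Acta2 in AGHMT-labelled libraries, against 99.4%, 99.5% and 97.9% in CM and at most 1.6% in E. The essential light chain share, Myl3 of Myl3 plus the atrial and fetal Myl4, was 73.5%, 67.8% and 65% against 97.5%, 98.1% and 98.6%. Adult forms thus made up most of these pairs without reaching the adult share. Myl2 was 86.6% ± 1.78 of Myl2 plus the atrial Myl7 against 98.4% ± 1.41 (SD, n = 3 each), and Myh6 85.8% ± 4.73 of Myh6 plus Myh7 against 94.8% ± 3.60. Metabolic pairs varied. The adult form prevailed for Eno3 (94.1%, 63.4% in E), Slc25a4 (92.6%, 83.8% in E), Ckm (88.0%, 5.20% in E) and Pfkm (74.1%, 62.5% in E). It thus prevailed in E as well for all of these but Ckm. The other form prevailed for the next 3 pairs. Cox6a2, the heart and muscle form of a cytochrome oxidase subunit, was 20.8%, 18.7% and 24.7% of Cox6a2 plus Cox6a1, against 77.2%, 93.9% and 97.1%. Slc2a4, the insulin-regulated glucose transporter, was 28.0%, 36.5% and 14.2% of Slc2a4 plus the widely made Slc2a1, against 97.4%, 96.6% and 97.8%. Ldhb, the heart lactate dehydrogenase, made up 39.3% ± 7.10 with Ldha against 77.3% ± 3.35. Of 18 pairs, 17 had a lower adult share in every AGHMT-labelled than in every CM library. The 1 pair the other way was Gja1, the main ventricular connexin, at 98.1% ± 0.458 of Gja1 plus Gjc1 against 89.5% ± 0.963. The exact two-sided permutation test gave p = 0.1 for each pair, the smallest that 3 against 3 allow, and 0.1 adjusted over the 18 pairs.

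**Figure D3:**
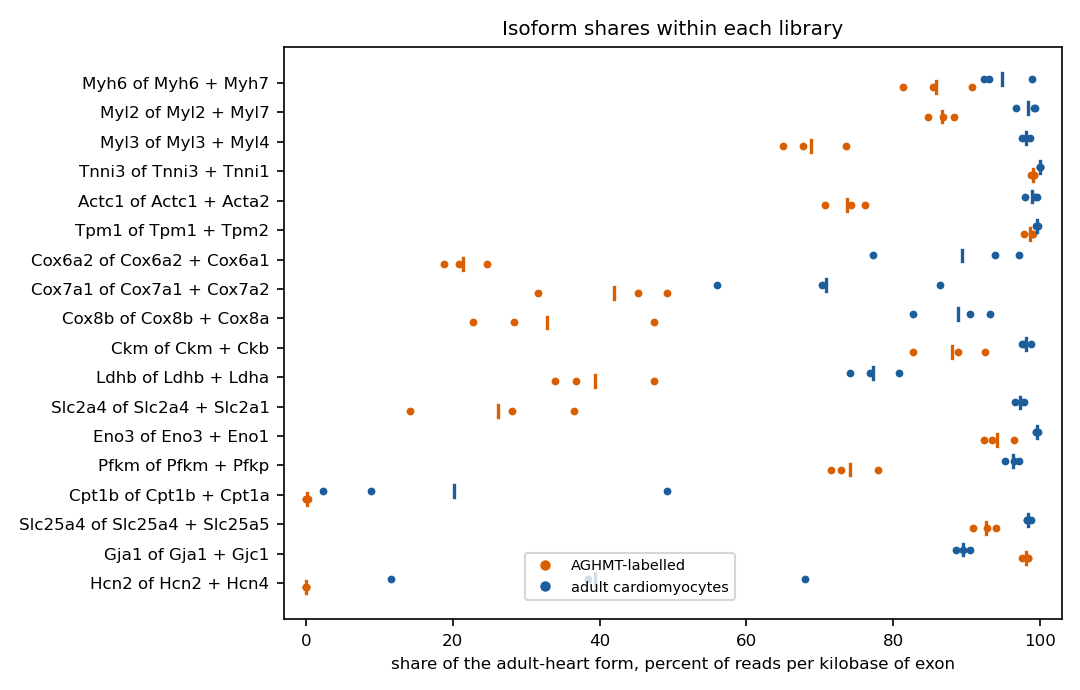
Share of the adult-heart form in 18 isoform pairs (x axis, percent of reads per kilobase of exon), with 1 point per library and a bar at each group mean. AGHMT-labelled points lie left of CM points for every pair but Gja1, and the lowest AGHMT-labelled means are those of Hcn2 (0.03%) and Cpt1b (0.07%). These forms did not prevail throughout CM either, at 11.6% to 68.0% for Hcn2 and 2.35% to 49.2% for Cpt1b. In E libraries, not drawn, Hcn2 was 71.9% to 82.2%.

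Calcium cycling genes stood nearer to the adult level than the sarcomere. Of 19 tested, 11 were lower in both fits (11 uncorrected, 18 corrected) and none was higher in both, with a median of -1.47 (-1.97 corrected). All AGHMT-labelled libraries lay above all E libraries for 16 of the 19. Atp2a2, the pump that refills the sarcoplasmic reticulum, had 3411, 2987 and 3271 CPM against 11612, 12781 and 7171 in CM and 256 in E (-1.71, SE 0.28, adjusted p = 2.98e-04, -1.99 corrected). AGHMT-labelled libraries were tightly grouped and below every CM library. Pln, which restrains that pump, had 2754, 2206 and 2490 CPM against 8651, 10605 and 4606 (-1.68, SE 0.44, adjusted p = 0.00637, -3.0 corrected). The Pln call ended without AGHMT 3 (-1.49). Hrc, a calcium-binding protein of the store, had 23.6, 42.7 and 23.3 CPM against 1100, 481 and 1086 (-4.89, SE 0.50, adjusted p = 6.17e-06, -3.89 corrected). Tmem38a, a potassium channel of the store, stood at 6.76, 12 and 5.29 CPM against 164, 100 and 290 (-4.52, -3.30 corrected). Jph2, which ties the store to the surface membrane, had 2.92, 3.52 and 2.51 CPM against 18.8, 17.3 and 240 (-4.94, -1.97 corrected, -2.60 without CM 3). Its AGHMT-labelled libraries lay below the E mean of 11.5 CPM but overlapped E 3 (2.78 CPM). Of the 8 genes for calcium entry, extrusion and junctions, 3 passed as lower without the correction and 8 with it.

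Working muscle channels were lower in 11 of 18 cases in both fits and higher in 2, with a median of -2.78 (-1.83 corrected). The 2 higher calls did not pass without CM 3. Kcnip2, a subunit of the transient outward potassium current, had 4.92, 6.55 and 3.60 CPM against 78.3, 70.0 and 121 (-4.16, SE 0.56, adjusted p = 6.13e-05, -2.90 corrected). Fxyd1, a regulator of the sodium pump, had 0.615, 0.165 and 0.164 CPM against 11.3, 11.4 and 181 (-7.79, -5.12 corrected, -5.22 without CM 3). No AGHMT-labelled library reached a CM library in either gene, and E means were at most 0.133 CPM.

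Genes of the sinus node and atria gave no common direction, with 7 of 22 higher and 6 lower in both fits. Hcn4, the main pacemaker channel, had 241, 506 and 572 CPM in AGHMT-labelled, 6.61, 10.3 and 9.45 in CM and a mean of 0.154 in E libraries (5.65, SE 0.45, adjusted p = 7.96e-07, 6.95 corrected). It exceeded the adult ventricular level in every library. Shox2 and Tbx18, transcription factors of the developing sinus node, were higher by 7.12 (7.28 corrected) and 5.52 (5.08 corrected). Shox2 was present in fibroblasts, with 99.5 CPM in E against 182, 141 and 163 in AGHMT-labelled libraries, and so was Tbx18 at 22.3 CPM against 246, 174 and 235. Of 7 nodal and atrial regulators tested 4 were higher in both fits and none was lower, with a median of 3.84 (3.30 corrected). Of 9 pacemaker and nodal channels 2 were higher in both fits, with Hcn4 among them, and 3 were lower, with a median of -0.40 (-1.18 corrected). Hcn2, the pacemaker channel of ventricular muscle, had 1, 2 and 0 reads in AGHMT-labelled and a level of 2.16, 0.704 and 10.5 CPM in CM libraries. Atrial effectors did not follow the regulators. Nppa, the atrial natriuretic peptide, had 6.30, 7.49 and 12.2 CPM against 137, 137 and 202 (-4.19, -2.24 corrected), and 3 of 6 were lower in both fits.

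Ventricular genes were lower in 5 of 10 cases in both fits and higher in 1. Irx4, a ventricular transcription factor, had 0.154, 0.330 and 0.109 CPM against 9.44, 10.3 and 27.3 (-6.24, SE 0.86, adjusted p = 2.67e-04, -4.13 corrected) and no read in E. Hey2, which marks the compact ventricular wall, was the member above CM, with 44.3, 31.3 and 38.9 CPM against 7.80, 8.66 and 5.67 (2.37, SE 0.54, adjusted p = 0.00283, 1.75 corrected). Both differences left a gap between the groups in opposite directions.

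**Figure D4:**
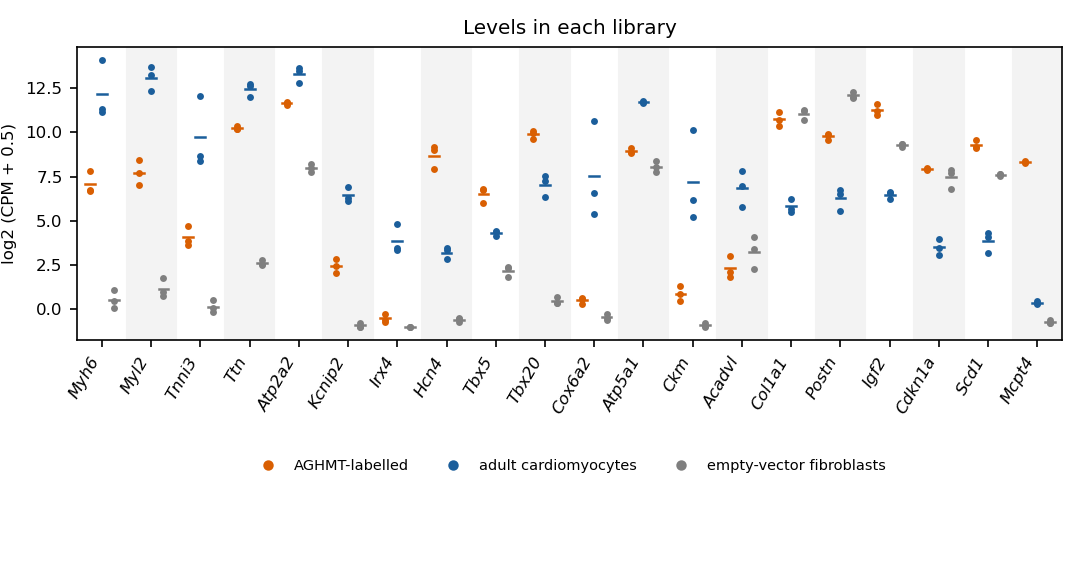
Log2 of CPM plus 0.5 (y axis) of 20 genes in each AGHMT-labelled, CM and E library, with a bar at each group mean. Contractile and energy genes such as Myl2 and Atp5a1 lie between E and CM or near E, and Hcn4, Tbx20 and Mcpt4 lie above both.

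Most metabolic regulators were lower, while other cardiac factors gave no clear common direction. Of 14 other cardiac factors tested, 4 were lower and 1 was higher in both fits, where 15.9% and 14.5% of all genes were. Of 8 metabolic regulators 7 were lower. Tbx20, needed for heart chamber growth, was the higher one, with 1104, 783 and 994 CPM against 152, 182 and 79.7 (2.80, SE 0.34, adjusted p = 2.68e-05, 1.40 corrected) and 0.861 CPM in E. Nkx2-5, an early heart factor named after its values were seen, was too low to test, with 0, 1 and 0 reads against 6, 16 and 111. Hopx, a small homeodomain protein of heart muscle, had 31.0, 27.7 and 21.4 CPM against 168, 158 and 205 (-2.73, -2.89 corrected), and Smyd1, a muscle methyltransferase, 91.6, 111 and 122 CPM against 788, 748 and 446 (-2.61, -2.54 corrected). Both lay clear of CM in all libraries and far above E, with means of 0.553 and 0.342 CPM. Esrra and Esrrb encode estrogen-related receptors, which switch on mitochondrial genes. Esrrb had 0.538, 0.606 and 0.600 CPM against 10.6, 9.26 and 14.1 (-4.26, SE 0.65, adjusted p = 2.84e-04, -3.24 corrected), and Esrra 0.307, 0.661 and 0.327 CPM against 2.16, 4.93 and 82.8 (-6.07, -5.99 corrected, -3.0 without CM 3). Rxrg, a partner receptor, had a log2 fold change of -4.78 (-3.40 corrected).

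Nuclear-encoded subunits were lower than in CM in every complex of the respiratory chain. Their median level was near that of fibroblasts for complex I. For complexes II to V the median level was below that of fibroblasts. The share of nuclear reads held by complexes II to V nevertheless lay above every E library in every AGHMT-labelled library. Of 37 nuclear-encoded complex I subunits, 36 were lower than in CM and 35 in both fits, with a median of -3.61 (-3.42 corrected). Their median level was 13.2 CPM in AGHMT-labelled and 12.6 CPM in E libraries. They held 0.165% to 0.227% of nuclear reads in AGHMT-labelled, 0.121% to 0.170% in E and 1.41% to 1.97% in CM libraries. All AGHMT-labelled libraries lay above all E libraries for 12 of the 37, below them for 9, and overlapped them for 16, where 34.76%, 36.87% and 28.37% of all genes did. Ndufs1, which carries iron-sulfur clusters of complex I, had 286, 277 and 261 CPM against 1023, 1250 and 556 (-1.78, SE 0.35, adjusted p = 0.00122, -2.64 corrected), with 93.4 CPM in E. Ndufs7 was further from CM, with 0.231, 0.495 and 0.491 CPM against 25.3, 11.6 and 158 (-7.27, -4.46 corrected, -5.46 without CM 3). Both subunits were below every CM library.

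In complexes II to V, 37 of 41 genes were lower in both fits, with a median of -3.09 (-3.02 corrected). These were 4 of 4 in complex II, 9 of 9 in complex III, 11 of 14 in complex IV and 13 of 14 in ATP synthase. The median level of the 41 genes was 9.56 CPM in AGHMT-labelled and 19.7 CPM in E libraries. The list held 0.417% to 0.586% of nuclear reads in AGHMT-labelled, 0.291% to 0.408% in E and 3.53% to 4.73% in CM libraries. All AGHMT-labelled libraries lay above all E libraries for 19 of the 41 and below them for 5. Sdha, the flavoprotein that complex II shares with the citric acid cycle, had 211, 240 and 222 CPM against 1576, 1489 and 1101 (-2.63, SE 0.31, adjusted p = 2.26e-05, -2.78 corrected). Atp5a1, the alpha subunit of ATP synthase, had 467, 553 and 449 CPM against 3461, 3201 and 3442 (-2.78, SE 0.46, adjusted p = 3.24e-04, -1.68 corrected). AGHMT-labelled levels were close together and apart from CM in both genes. Atp5o, in the stalk of the synthase, had 8.30, 10.9 and 7.42 CPM against 530, 233 and 446 (-5.50, -5.66 corrected). Its AGHMT-labelled libraries lay below the E mean of 22.1 CPM but overlapped E 3 (10.7 CPM). Cox6a2 showed the widest difference of the named lower genes. It had 0.999, 1.05 and 0.709 CPM against 41.5, 96.2 and 1608 (-9.30, SE 1.26, adjusted p = 6.71e-05, -7.27 corrected, -6.23 without CM 3).

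Transcripts of the mitochondrial genome itself were 42.7%, 36.6% and 40.4% of gene reads in AGHMT-labelled, 55.0%, 59.9% and 40.0% in CM and 3.65% to 7.36% in E libraries. The mean was 39.9% ± 3.07 against 51.6% ± 10.4 (SD, n = 3 each, exact permutation p = 0.3, smallest possible 0.1), and CM 3 overlapped the AGHMT-labelled range. Of 10 mitochondrially encoded mRNAs tested 1 was lower without the correction, mt-Nd4 of complex I, and 8 with it, with medians of -0.54 and -1.49. The mt-Nd4 value was -1.35 (-2.52 corrected), and its call ended without AGHMT 3 (-1.14). All 10 lay above all E libraries in every AGHMT-labelled library.

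Fatty acid oxidation was lower throughout its main steps. Of 23 genes tested 22 were lower in both fits, including all 18 of the beta oxidation group, with a median of -2.56 (-2.95 corrected). Acadl, the long-chain acyl-CoA dehydrogenase, had 177, 208 and 196 CPM against 803, 1021 and 734 (-2.14, SE 0.28, adjusted p = 4.92e-05, -2.62 corrected). Acadvl, the very-long-chain enzyme, had 3.84, 7.49 and 3.05 CPM against 124, 54.2 and 223 (-4.80, SE 0.64, adjusted p = 6.19e-05, -3.63 corrected). Its AGHMT-labelled libraries lay under the E mean of 10.2 CPM but overlapped E 3 (4.25 CPM). Both enzymes were below CM in every library, although only Acadl exceeded E. Cpt1b, the muscle gatekeeper of fatty acid entry, was too low to test, with 0, 1 and 0 reads against 6, 14 and 74. Uptake and storage genes were lower in 15 of 19 cases in both fits. Fabp3, the heart fatty acid carrier, had 2.69, 1.93 and 1.47 CPM against 191, 51.0 and 661 (-7.22, -5.06 corrected, -5.91 without CM 3). Acsl1, which activates fatty acids, had 121, 142 and 179 CPM against 749, 641 and 534 (-2.12, -3.17 corrected) and 8.91 in E.

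The tricarboxylic acid cycle and the malate-aspartate shuttle were lower in 22 of 24 cases in both fits, with a median of -3.40 (-3.20 corrected). The median level of these genes was 39.3 CPM in AGHMT-labelled and 38.1 CPM in E libraries. They held 0.346% to 0.426% of nuclear reads in AGHMT-labelled, 0.198% to 0.270% in E and 2.13% to 2.51% in CM libraries. All AGHMT-labelled libraries lay above all E libraries for 9 of the 24 and below them for 3. Mdh2, the mitochondrial malate dehydrogenase, had 11.7, 17.1 and 8.73 CPM against 371, 169 and 787 (-5.14, SE 0.62, adjusted p = 2.47e-05, -4.78 corrected), below its E mean of 44.8. Mdh1, its partner in the cytosol, had 127, 204 and 142 CPM against 2018, 1508 and 1268 (-3.34, -3.83 corrected), above its E mean of 50.7. Of the pyruvate dehydrogenase complex and its carriers 5 of 6 genes were lower in both fits. Its kinases split. Pdk4, the isoform of fasting and fat use, had 62.2, 47.6 and 51.3 CPM against 237, 254 and 146 (-1.98, -2.69 corrected), and Pdk3 had 50.4, 43.2 and 35.4 against 3.20, 4.03 and 1.72 (3.83, SE 0.54, adjusted p = 8.82e-05, 3.72 corrected), near its E mean of 44.7.

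Most transcripts of glycolytic enzymes were below the adult level too. Of 18 glycolytic enzymes 12 were lower and 2 higher in both fits, with a median of -2.69 (-1.63 corrected). Of 5 transporter genes of that list 1 was lower in both fits, with a median of 0.52 (0.44 corrected). Pfkm, the muscle phosphofructokinase, had 15.4, 31.4 and 18.9 CPM against 352, 258 and 534 (-4.12, SE 0.44, adjusted p = 9.1e-06, -2.93 corrected). Aldoa, muscle aldolase, had 12.1, 16.4 and 10.3 CPM against 215, 124 and 1195 (-5.30, -3.20 corrected, -3.71 without CM 3), under its E mean of 102. Aldoc, the aldolase of brain, had no read in CM and 0.845, 1.16 and 0.818 CPM in AGHMT-labelled libraries, at least 9.15-fold higher if the CM group as a whole is set to 3 reads. Multi-copy genes of glycolysis are uncertain, because reads that matched several places were not counted. Creatine kinase and energy transfer genes were lower in 5 of 8 cases in both fits. Ckm, the muscle creatine kinase, had 1.92, 1.32 and 0.873 CPM against 35.8, 71.4 and 1138 (-8.25, SE 1.22, adjusted p = 1.40e-04, -6.72 corrected, -5.30 without CM 3). Mb, the oxygen store myoglobin, had 75.8, 220 and 80.1 CPM against 1915, 1930 and 9878 (-5.19, -3.42 corrected, -3.94 without CM 3). Both were above E, where their means were 0.0281 and 0.775 CPM.

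**Figure D5:**
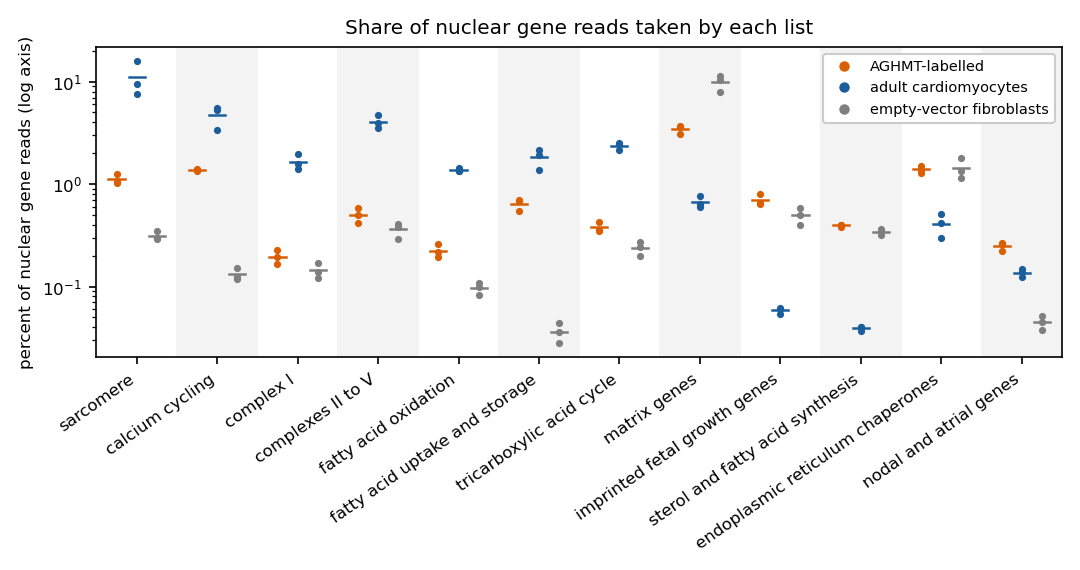
Percent of the reads from nuclear genes (y axis, log scale) that 12 gene lists took in each AGHMT-labelled, CM and E library, with a bar at each group mean. For complex I the AGHMT-labelled libraries (0.165% to 0.227%) lie beside E (0.121% to 0.170%), and for sarcomere genes they lie between E and CM.

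Cell contact genes gave no common direction, and a small set of all genes tested was within 2-fold of the adult level. The 14 intercalated disc genes had medians of 0.28 and -0.63 corrected, with members from -5.18 to 2.86 before the correction. Without the correction 2 of the 14 were within 2-fold of CM, and with it 4 passed as higher and 5 as lower. In both fits 3 were higher and 2 lower, where 14.5% and 15.9% of all genes were. The higher ones include Dsc2, a desmosomal cadherin, with 553, 380 and 466 CPM against 72.2, 86.0 and 34.4 (2.86, SE 0.39, adjusted p = 6.78e-05, 1.70 corrected) and 1.55 CPM in E. Nrap, which anchors actin at the disc, was lower, with 3.69, 7.21 and 3.22 CPM against 172, 73.8 and 267 (-5.18, -4.29 corrected). Beside Ldb3, the 106 genes within 2-fold of CM in both fits include Rbm24, a splicing regulator of muscle, at 246 ± 28.3 against 311 ± 77.5 CPM (SD, n = 3 each) and 1.13 in E. They also include Sparcl1, a matrix-associated glycoprotein, at 342 ± 19.9 against 257 ± 22.5 CPM and 3.81 in E. These 2 genes were named after their values were seen, and Rbm24 passed as lower (-1.05) with DESeq2's size factors. Of the 106 genes, 38 had all AGHMT-labelled libraries above all E libraries (35.85%, against 34.76% of all genes), and 68 did not.

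Matrix genes remained above the adult muscle level. Of 47 tested 28 were higher in both fits (29 uncorrected, 34 corrected, background 23.7% and 18.8%) and 2 were lower, with a median of 1.87 (2.06 corrected). They took 3.11% to 3.67% of nuclear reads in AGHMT-labelled, 0.593% to 0.763% in CM and 7.96% to 11.4% in E libraries. In 33 of the 47 genes every AGHMT-labelled library lay below every E library, as in 36.87% of all genes. Col1a1, the main fibrillar collagen, had 1315, 1680 and 2319 CPM against 50.2, 45.2 and 75.1 in CM (4.96, SE 0.41, adjusted p = 1.02e-06, 6.49 corrected) and 2174 in E. Lox, which cross-links collagen, had 737, 694 and 834 CPM against 8.03, 11.1 and 4.81 (6.55, SE 0.40, adjusted p = 6.13e-08, 5.62 corrected), and 2962 in E. Tnc and Postn, matricellular proteins of growing and healing tissue, were higher by 6.10 (6.56 corrected) and 3.46 (1.75 corrected). All 4 genes had AGHMT-labelled and CM libraries apart. Lum, a small proteoglycan, was above both references, with 1422, 1046 and 1137 CPM against 126, 125 and 50.7 in CM and 78.3 in E (3.58, SE 0.37, adjusted p = 6.83e-06, 2.58 corrected).

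Fibroblast and smooth muscle genes showed the same side. Of 20 fibroblast regulators and surface markers 8 were higher and 1 lower in both fits, and of 12 smooth muscle genes 7 were higher and 1 lower. Twist1, a mesenchymal transcription factor, had 16.4, 20.2 and 20.2 CPM against 0.817, 0.604 and 0.687 (4.73, SE 0.58, adjusted p = 2.91e-05, 6.74 corrected), level with its E mean of 20.3. Cd44, a receptor for hyaluronan, had 694, 506 and 633 CPM against 16.8, 17.7 and 10.8 (5.33, SE 0.34, adjusted p = 7.83e-08, 4.37 corrected), above its E mean of 411. Cald1, an actin-binding regulator of smooth muscle and fibroblasts, had 2801, 2245 and 2498 CPM against 80.1, 95.6 and 57.2 (5.02, SE 0.32, adjusted p = 7.6e-08, 4.01 corrected). The E mean of Cald1 was 2289 CPM. Adult cells were therefore the low group for these 3 genes.

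Lipid synthesis exceeded the adult level while lipid burning fell short of it. Of 22 sterol and fatty acid synthesis genes 15 were higher in both fits and none was lower in both, with a median of 2.18 (1.89 corrected). Their share of nuclear reads was 0.381% to 0.403% in AGHMT-labelled, 0.037% to 0.041% in CM and 0.316% to 0.362% in E libraries. Scd1, which desaturates fatty acids, had 748, 553 and 572 CPM against 16.3, 19 and 8.59 (5.4, SE 0.36, adjusted p = 1.03e-07, 5.01 corrected) and 194 in E. Msmo1, a step of cholesterol synthesis, had 182, 138 and 156 CPM against 6.99, 7.55 and 4.47 (4.63, SE 0.34, adjusted p = 2.28e-07, 3.74 corrected) and 70.3 in E. Both were above both references in all libraries, which held for 3 of the 22 genes (19.24% of all genes). Every AGHMT-labelled library lay below every E library for 14 of the 22, as for 36.87% of all genes. The median level of the list was 29.4 CPM in AGHMT-labelled and 51.9 CPM in E libraries. Of 16 endoplasmic reticulum chaperones, which fold secreted proteins, 5 were higher and none lower in both fits, among them Pdia3 with 2957, 2316 and 2568 CPM against 297, 425 and 158 (3.16, SE 0.38, adjusted p = 2.68e-05, 2.86 corrected). The chaperone median of 0.58 (0.85 corrected) was -0.18 with DESeq2's size factors, -0.15 with DESeq2 and -0.16 with limma.

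Some division genes were above the adult level, and nearly all were below that of fibroblasts. Of 30 mitosis genes 15 were higher than in CM, 11 with the correction and 10 in both fits, with a median of 1.5 (1.03 corrected), and none was lower. Every AGHMT-labelled library lay below every E library for 29 of the 30, as for 36.87% of all genes. Ccnb1, the mitotic cyclin, had 22.5, 14.4 and 19.5 CPM against 0.149, 0.403 and 0.172 (6.24, SE 0.92, adjusted p = 1.27e-04, 5.42 corrected). Tpx2, a spindle protein, had 26.7, 24.3 and 22.5 CPM against 2.82, 3.32 and 1.89 (3.17, SE 0.37, adjusted p = 1.85e-05, 2.89 corrected) and 134 in E. Of 29 replication genes 2 were higher and 1 lower in both fits, with a median of -0.27 (-0.41 corrected). Of 17 genes for D and E cyclins, their kinases and cell cycle inhibitors, 8 were higher in both fits (14.5% of all genes) and none was lower. The inhibitors alone were higher in 4 of 9 cases in both fits. Cdkn1a, the p21 inhibitor, had 256, 237 and 240 CPM against 15, 7.95 and 10.3 (4.45, SE 0.38, adjusted p = 1.27e-06, 5.54 corrected) and 186 in E. Cdkn1c had 236, 200 and 240 CPM against 12.7, 17.1 and 18.9 (3.8, 5.69 corrected) and 15.9 in E. Cdkn2a, which codes for p16 and p19, had no read in CM and 2.0, 4.95 and 4.64 CPM in AGHMT-labelled libraries, at least 37.6-fold higher. AGHMT-labelled and E libraries overlapped for Ccnb1 and Cdkn2a.

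The Akt pathway gave no common direction. Among its 27 tested genes, both fits put 5 above and 5 below CM, with medians of 0.09 and -0.30 corrected, and -0.63 with DESeq2's size factors. Without the correction 11 were higher and 7 lower, and without CM 3 these were 7 and 3. Gsk3b, a kinase that Akt inhibits, had 188, 166 and 201 CPM against 68.2, 63.9 and 44.3 (1.65, 0.87 corrected). Eif4ebp1, a brake on translation downstream of the pathway, was lower, with 0.999, 0.495 and 0.763 CPM against 4.38, 3.72 and 34.2 (-4.21, -4.37 corrected, -2.44 without CM 3). Trim63, a muscle ubiquitin ligase that FoxO factors switch on, had 26.3, 39.2 and 27.0 CPM against 346, 174 and 265 (-3.08, SE 0.41, adjusted p = 5.31e-05, -2.33 corrected) and 0.209 in E. The groups did not overlap in any of these 3 genes.

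Imprinted fetal growth genes and Hox genes stood out on the high side. Of 10 imprinted fetal growth genes 10 were higher, 9 of them in both fits, with a median of 3.47 (3.39 corrected). Igf2, a fetal growth factor, had 2417, 2068 and 3068 CPM against 93.0, 99.4 and 74.7 (4.82, SE 0.28, adjusted p = 5.54e-08, 5.90 corrected) and 623 in E. Mest had 296, 306 and 355 CPM against 11.8, 7.75 and 5.50 (5.24, SE 0.37, adjusted p = 2.08e-07, 4.93 corrected) and 36.5 in E. Both were above E in every AGHMT-labelled library. So were 4 of the 10 members, while 4 lay below E, where 34.76% and 36.87% of all genes did. Of 24 Hox genes, which record position along the body, 22 were higher in both fits, with a median of 6.36 (7.08 corrected). Relative to fibroblasts, all AGHMT-labelled libraries lay above all E libraries for 9 of the 24 and below them for 4, and 11 overlapped E. Hoxc8 had 67.6, 50.7 and 65.9 CPM against 0.0743, 0.201 and 0 in CM, from 3 reads in CM, and 17.1 in E. Hoxa10 had no read in CM and 20.5, 15.1 and 23.0 CPM in AGHMT-labelled libraries, at least 190-fold higher, with 13.9 CPM in E.

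The genes furthest above CM were of varied function. Scg2, a granule protein of neuroendocrine cells, had 195, 199 and 193 CPM in AGHMT-labelled libraries, 1 read in CM and 1.01 CPM in E. Gpr83, an orphan receptor, had 20.3, 20.6 and 23.3 CPM and no read in CM or E, at least 209-fold higher than CM. Chrna3 and Chrnb4, neighbouring genes of nicotinic receptor subunits on chromosome 9, had 17.1, 15.4 and 14.8 CPM and 11, 10.1 and 11.7 CPM with no read in CM, at least 154-fold and 106-fold higher. Npy, a peptide of nerve cells, was at least 183-fold higher and Wnt16, a signalling ligand, at least 185-fold. Libraries were close to each other in all these genes. Mcpt4, a mast cell protease, had 339, 317 and 309 CPM against 0.743, 0.704 and 0.859 (8.71, SE 0.47, adjusted p = 4.33e-08, 9.27 corrected) and 0.0958 in E. Of 2187 genes higher in both fits, 177 had no read in any CM library and 17 had none in CM or E.

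Mcpt4 belongs to the mast cell list. Of its 10 markers 5 were tested, of which 2 were higher and 2 lower, and the defining markers Cma1, Tpsb2, Cpa3, Fcer1a and Tpsab1 had 0 to 7 reads in each AGHMT-labelled library. The list's summed level was 312 to 341 CPM in AGHMT-labelled and 9.27 to 12.1 CPM in CM libraries, and Mcpt4 alone stood at 309 to 339 CPM. Mcpt2, a further mast cell protease outside the list, had 17.5, 15.7 and 12.3 CPM in AGHMT-labelled libraries. It had no read in CM or E, and was at least 148-fold higher than CM. The part of mast cells in the Mcpt4 and Mcpt2 values was not tested. Kit, the receptor that marks mast cells and their precursors, was lower, with 0.769, 1.49 and 1.58 CPM against 7.95, 7.15 and 5.33 (-2.40, -2.75 corrected).

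Markers of other heart cells were present in the CM libraries. Endothelial markers were lower in AGHMT-labelled libraries for 12 of 13 genes in both fits, with summed levels of 202 to 223 CPM against 740 to 1018 in CM and 38 to 44.5 in E. Tie1, a receptor of vessel walls, had 0.692, 1.43 and 1.58 CPM against 40.3, 25.3 and 69.6 (-5.17, SE 0.69, adjusted p = 6.38e-05, -3.59 corrected). Pericyte markers were lower for 6 of 7 (350 to 395 against 814 to 1564 CPM) and macrophage markers for 8 of 16 (98.7 to 188 against 210 to 281 CPM). Epicardial markers were higher for 4 of 7, and for 2 without CM 3 (112 to 121 against 32.3 to 39.9 CPM), among them Wt1 with 41.7, 39.1 and 34.8 CPM against 7.73, 10.6 and 8.07 (2.13, 2.88 corrected). The part of such cells in the differences of lipid handling, matrix and channel genes was not tested. Heart muscle markers were plain in CM, where Myl2 was at 5125 to 13306 CPM, so the label of those libraries matches their markers. In AGHMT-labelled libraries the same markers were present at lower levels beside fibroblast collagens.

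Genes below the adult level were placed in different ways relative to fibroblasts. Of 2387 genes lower than CM in both fits, 709 (29.7%) lay between E and CM with all libraries apart, 1018 (42.65%) lay below E in all libraries, and 658 overlapped E. Of all genes tested 15.37% lay between E and CM, 36.87% below E, 19.24% above both and 28.37% in overlap with E. Of 2187 genes higher than CM, 1211 (55.37%) lay above E as well, 458 (20.94%) lay between CM and E, and 518 overlapped E. The in-between kind held 26 of 35 sarcomere genes, 13 of 23 fatty acid oxidation genes and 12 of 37 complex I subunits. These placements carry no test, and depth and GC content differ between E and the other groups as well.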

How the data were processed

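RNA-seq libraries were made from TRIzol RNA with a stranded TruSeq kit, per the labels. Bowtie2 2.0.6, HTSeq, DESeq and mm10 are named in the submitters' processing notes. For the strand setting of the counting, and for the gene models used, the entry is: not given in the sources used here. As values, the authors deposited read counts per gene and, separately, a normalized signal, which are counts divided by size factors. Whole reads were recovered from that signal for 100% of values (tolerance 0.001), 99.9% of them equal to the counts. The count test on the recovered reads called 3389 genes higher and 3465 lower over 14193 matched genes. Of 43629 gene IDs, 42548 matched GENCODE M21 (GRCm38). Reads without a gene (8.45% to 20.2%) stayed out of library sizes, and multi-mapped reads were not counted. Counts were tested with edgeR 4.0.16 (R 4.3.3): filterByExpr (minimum count 10, total 15), TMM, robust quasi-likelihood over all 12 libraries, AGHMT minus CM, Benjamini-Hochberg threshold 0.05. The correction subtracted per-library spline trends of GC content and exon length. It was tried on simulated counts with 200 changed genes. Their trend came from the same spline fit that the correction removes, so this cannot show how well it suits the real libraries. Alternatives were other scalings and filters, DESeq2 1.42.0, limma 3.58.1 on log2(deposited signal + 1), fewer libraries, a replicate block, thinning and leaving out each library. Chosen after seeing the data were the correction without CM 3, a prior count of 2 and shares from raw reads. So were isoform shares with the GC and length trend removed, whose values are not reported here. Members and lists were chosen with earlier results of these data known. The naming rule took, for each role of a list, the most abundant member and up to 3 called members per direction with the largest fold, the forced genes, Myh6, both genes of each isoform pair, and the 12 largest changes per direction at 10 CPM or more without overlap. Genes outside it were named after their values were seen. Results for some genes are not reported here.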

Additional observations from a re-analysis of the deposited data

Results flagged for a closer look

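Reads that aligned to more than 1 place or were otherwise not unique lie outside the counts used above. They were 59.2%, 54.6% and 57.7% in AGHMT 1 to 3 and 69.6%, 69.7% and 60.2% in CM 1 to 3, above each E library (45.8% to 48.1%). What these reads hold was not tested.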

How the results depend on the processing

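DESeq2's size factors gave 2216 higher, 5507 lower and 721 within 2-fold genes, DESeq2 6279 lower, limma 1890 higher, and total counts 110 within 2-fold. Genes within 2-fold numbered 1542 with AGHMT and CM libraries only, 193 with the replicate block, 1217 with the GC and length correction, 855 with correction and block, and 798 with the correction without CM 3, which gave 2289 higher. Leaving out 1 library gave 2807 to 4128 higher, 2152 to 4394 lower and 64 to 711 within 2-fold. The fold had the opposite sign with the correction, the correction with the block and the correction without CM 3 for Akt1 (0.34, 0.29, 0.32), Cox6a1 (0.79, 0.77, 0.49), Gja1 (-0.86, -0.87, -0.81), Mef2c (-0.95, -0.95, -0.99) and Myl7 (0.19, 0.33, 0.89). It did so for Ldb3 with DESeq2's size factors (-0.75) and DESeq2 (-0.75). The cause was not tested. The replicate block gave 3115 higher and 2820 lower genes. Same-numbered AGHMT and CM libraries share only a number: the correlations of their deviations were 0.126, -0.415 and -0.061. Depth limits genes of a few reads most in CM 3. Without 1 library the shift in isoform share (percentage points) ranged as follows. It was -11.4 to -6.70 for Myh6, -12.6 to -10.9 for Myl2, -31.7 to -27.5 for Myl3, -26.5 to -23.8 for Actc1, -74.1 to -64.1 for Cox6a2, -76.2 to -65.0 for Slc2a4 and -42.0 to -35.2 for Ldhb. The mitochondrial share shifted by -17.6 to -7.57 points.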

Other observations

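Xist, the RNA of the inactive X chromosome, had 894, 725 and 863 CPM in AGHMT-labelled, 1.41, 2.92 and 0.859 CPM in CM and 613 to 1200 CPM in E libraries. The Y-linked genes Ddx3y, Uty, Kdm5d and Eif2s3y had reads in all of these libraries. Sex was not given in the labels used here and differs with the groups to this extent.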
